A study of Mus musculus with 20 samples.

Results

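Mitochondrial beta-oxidation was followed through 10 genes in the livers of db/db mice: the carnitine shuttle genes Cpt1a, Cpt1b, Slc25a20 and Cpt2, the acyl-CoA dehydrogenase genes Acadvl, Acadl, Acadm and Acads, and the trifunctional protein genes Hadha and Hadhb. They were chosen by name, and each symbol matched 1 of the 22298 genes listed in every one of the 20 libraries. All 10 were among the 12342 genes kept by the filter on low counts. The mice were male and carried the Lepr db/db genotype, which leaves them obese and diabetic, and all received an AAV8 vector by tail vein at 5 weeks of age. In the AAV8-Vec mice the vector carried an shRNA without a target, and in the AAV8-PPARγ-shRNA mice it carried 4 hairpins against Pparg. The mice were then gavaged daily for 4 weeks with the vehicle CMC-Na or with 25 mg/kg benzbromarone (BBR), a uricosuric drug, and were fasted for 6 h before the liver was taken. This gave 4 groups of 5 mice: Vec (vehicle), Vec+BBR, shRNA (vehicle), and knockdown with drug (shRNA+BBR). There was no group without a vector and no lean group, so every value is from a diabetic liver that had received AAV8, and the knockdown lowers Pparg without deleting it.

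Beta-oxidation shortens fatty acids inside the mitochondrion and is the main source of energy and of ketone body precursors in the fasted liver. Long chain acyl groups enter as carnitine esters: CPT1 on the outer membrane makes the ester, the carrier SLC25A20 exchanges it across the inner membrane, and CPT2 turns it back into acyl-CoA. Each turn of the spiral then begins with an acyl-CoA dehydrogenase matched to chain length (ACADVL, ACADL, ACADM and ACADS, from very long to short), and for long chains the remaining steps are carried out by the trifunctional protein, whose alpha and beta subunits are the products of Hadha and Hadhb. Many of these genes are known targets of PPARα, the fatty acid receptor that dominates in hepatocytes. PPARγ is the related receptor that drives lipid storage in fat and is present at low levels in normal liver.

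The 4 hairpins used for the knockdown are shown because every comparison with the shRNA groups rests on them. Each sense arm is 21 bases long.
shRNA1: gcatctccaccttattattct
shRNA2: ggatgtctcacaatgccatca
shRNA3: ggaaagacaacggacaaatca
shRNA4: ggaagccctttggtgacttta
In the GENCODE M21 transcripts all 4 matched Pparg in its coding sequence on chromosome 6 (GRCm38), in 3 to 5 of its 5 protein-coding transcripts. The site of shRNA1 lies at chr6:115441512-115441532, and that of shRNA4 at chr6:115473195-115473215. None of the 62 transcripts of the 10 genes, and no transcript of any other gene, held an exact match on either strand.

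Pparg itself was read first as a check of the labels. It stood at 16.4, 20, 35.9, 19.4 and 32.1 CPM (counts scaled to a common library size) in the Vec mice and at 7.31, 6.53, 5.96, 3.24 and 5.62 CPM in the shRNA mice. These groups did not overlap, and the difference was -2.12 on the log2 scale (SE 0.28, edgeR adjusted p = 4.47e-05). Under BBR it stood at 28.0 to 38.3 CPM in Vec+BBR and at 11.4, 9.98, 21.8, 18.9 and 7.19 CPM in shRNA+BBR, a difference of -1.20 (SE 0.26, edgeR adjusted p = 0.00843). Pparg was also higher in shRNA+BBR than in shRNA, by 1.28 (SE 0.28, edgeR adjusted p = 0.00773), so the 2 knockdown groups did not share one level of Pparg.

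The libraries held 17432904 to 25024099 counts. Hepatocyte markers (6 genes including Alb and Apoa1) summed to 109000 to 139000 CPM in Vec and 84600 to 119000 CPM in Vec+BBR. They summed to 104000 to 121000 CPM in shRNA and 97300 to 118000 CPM in shRNA+BBR, which fits the label of liver tissue. The share of counts in mitochondrially encoded genes was 9.14 to 10.8% in Vec, 9.96 to 13.8% in Vec+BBR, 9.90 to 12.3% in shRNA and 10.2 to 16.2% in shRNA+BBR. Stellate cell markers (5 genes) summed to 129 to 226 CPM in Vec, 226 to 258 in Vec+BBR, 171 to 218 in shRNA and 203 to 280 in shRNA+BBR. Of these sums, Dcn alone averaged 130 CPM in Vec and 167 CPM in Vec+BBR. Endothelial markers (4 genes) summed to 55.3 to 78.7 CPM in Vec, 69.5 to 91.1 in Vec+BBR, 84.2 to 113 in shRNA and 67.7 to 96.4 in shRNA+BBR. The part of these cell types in the results was not tested. In whole liver, fewer cells of a type and less RNA per cell cannot be told apart. Muscle markers (7 genes) summed to at most 0.456 CPM in 19 libraries and to 12.1 CPM in mouse 3 of Vec+BBR.

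Per length, 9 of the 10 genes were abundant and 1 was close to absent. In the Vec livers the deposited FPKM level was highest for Acadm, at 222 ± 19.9 (SD, n = 5), then Acadvl at 189 ± 14.5, Cpt1a at 136 ± 27.3, Hadhb at 122 ± 14.5, Acads at 113 ± 10.1, Hadha at 103 ± 9.64, Acadl at 98.2 ± 10.2, Cpt2 at 88.4 ± 1.81 and Slc25a20 at 81.6 ± 12.5. Cpt1b, the muscle form of CPT1, was at 0.544 ± 0.672 FPKM. Acadm stood above Acadvl, Acadvl above Cpt1a, Acads above Hadha and Slc25a20 above Cpt1b in 5 of 5 Vec mice. Each of the other neighbors in this order kept its place in 4 of 5 mice, with mean differences of 4.52 to 14.8 FPKM that were below their spread (SD 4.78 to 25.6 FPKM), so these neighbors cannot be ranked.

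**Figure D1:**
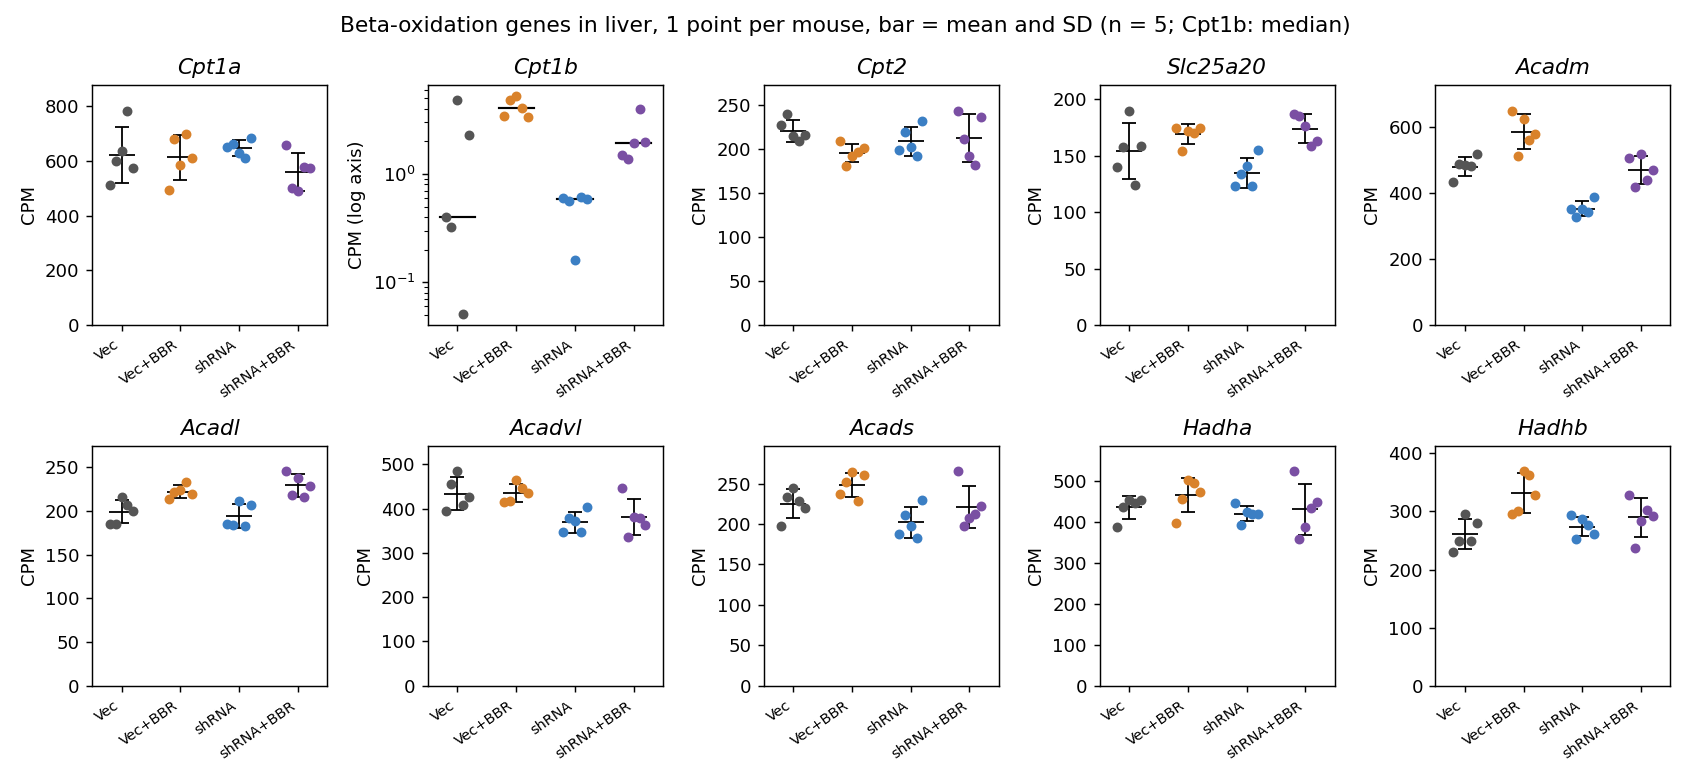
Normalized counts (CPM, y axis; log axis for Cpt1b) of the 10 genes in the 4 groups (x axis), 1 point per mouse, with the mean and SD of 5 mice as bars and, for Cpt1b, the median as a line. The 5 shRNA mice sit below all Vec mice for Acadm (328 to 388 against 433 to 516 CPM), and Cpt1b spans 0.0507 to 4.85 CPM within Vec alone.

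How many of these genes moved was read from an edgeR quasi-likelihood fit over all tested genes, in which a gene rose or fell where its adjusted p was under 0.05. With BBR in AAV8-Vec mice (Vec+BBR against Vec), 2 of the 10 rose, Acadm and Hadhb, where 7.58% of all tested genes rose. None fell, where 7.88% of all genes fell. No gene fell at an unadjusted p under 0.05 either, while DESeq2 and limma-voom each had 1 at that level and 0 after adjustment. The median change of the 10 genes was 0.14 on the log2 scale, and that of all tested genes was -0.005.

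With BBR in knockdown mice (shRNA+BBR against shRNA), 4 of the 10 rose, Cpt1b, Slc25a20, Acadl and Acadm, where 8.37% of all tested genes rose, and 0 fell, where 7.28% of all fell. Their median change was 0.11, against 0.008 for all tested genes. By edgeR, DESeq2 and limma-voom alike, 0 of the 10 fell even at an unadjusted p under 0.05.

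With knockdown alone (shRNA against Vec), 1 of the 10 fell, Acadm, where 7.91% of all tested genes fell, and 0 rose, where 5.28% of all rose. With knockdown under BBR (shRNA+BBR against Vec+BBR), again 1 fell, Acadm, where 4.82% of all fell, and 0 rose, where 3.31% of all rose. At an unadjusted p under 0.05 the genes that were higher numbered 0 in both comparisons by edgeR, DESeq2 and limma-voom. The medians of the 10 genes were -0.11 and -0.15, against -0.009 and -0.004 for all tested genes. In both comparisons the count of fallers is near what that share of all genes would give for 10 genes.

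With both treatments against neither (shRNA+BBR against Vec), 0 of the 10 genes moved by edgeR, where 4.54% of all tested genes rose and 7.49% fell. At an unadjusted p under 0.05 there were 2, Acadl higher and Acadvl lower. DESeq2 called 1 of them after adjustment, Acadl, and limma-voom called 0. Whether the BBR change differed between AAV8-Vec and knockdown mice was tested as an interaction, which 0 of the 10 genes passed, where 0.146% of all genes did. By edgeR 0 of the 10 had an unadjusted p under 0.05 in that test, and after adjustment DESeq2 and limma-voom also called 0. A gene that rose in one of the BBR comparisons and not in the other is therefore not shown to differ between them. These 5 comparisons reuse the same 4 groups, so they are set side by side here and are not independent of each other.

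**Figure D2:**
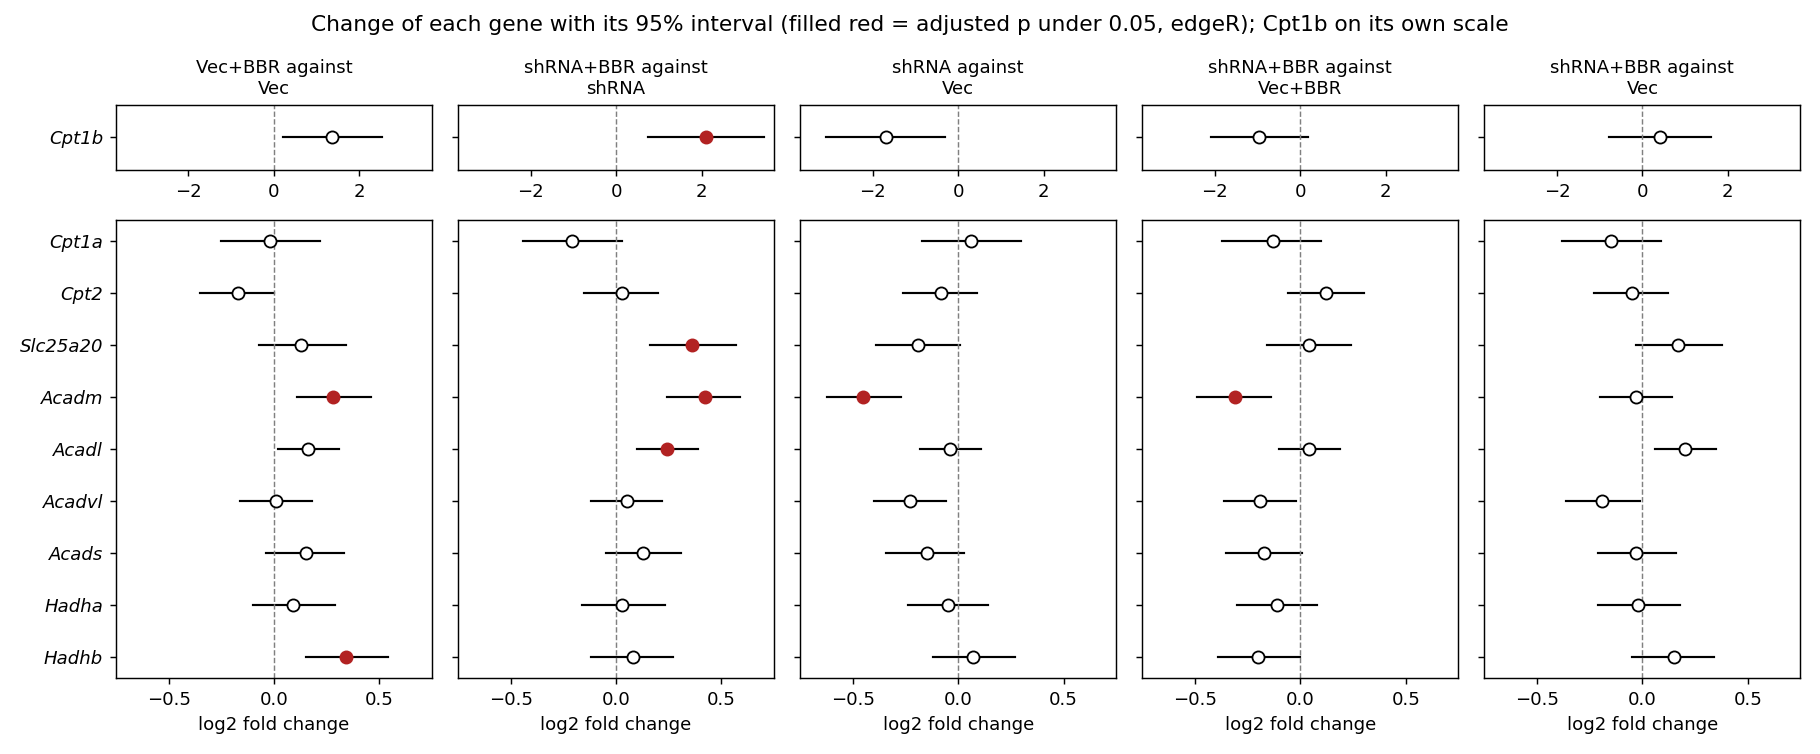
Log2 fold change (x axis, point) with its 95% interval (line) for each gene (y axis) in 5 comparisons, filled red where the edgeR adjusted p was under 0.05, with Cpt1b on a wider scale. Acadm is filled in the 4 comparisons that change one treatment, at 0.28, 0.42, -0.45 and -0.31, and lies at -0.03 in shRNA+BBR against Vec.

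Of the carnitine shuttle, the liver form Cpt1a did not move. Cpt1a (chr19:3322334-3385733, plus strand, GRCm38) makes the enzyme at which malonyl-CoA restrains fatty acid entry. It stood at 510, 598, 635, 783 and 574 CPM in Vec and at 492, 680, 586, 698 and 609 CPM in Vec+BBR. The ranges overlapped almost entirely, with a difference of -0.02 on the log2 scale (95% interval -0.25 to 0.22). In shRNA it was at 609 to 684 CPM and in shRNA+BBR at 656, 499, 489, 578 and 575 CPM. In that pair 4 of 5 BBR-treated mice lay below all untreated ones, and the difference of -0.21 (95% interval -0.44 to 0.03) did not pass the test (edgeR adjusted p = 0.201).

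Cpt1b had the largest fitted differences of the 10 genes and the widest intervals. It lies at chr15:89416405-89425863 on the minus strand, and 81.4% of its exonic bases are shared with Gm44502, an annotated same-strand gene that reaches across into the choline kinase gene Chkb, so the division of reads between them is uncertain. Cpt1b stood at 0.401, 0.321, 4.85, 0.0507 and 2.31 CPM in Vec and at 3.42, 4.79, 5.28, 4.06 and 3.34 CPM in Vec+BBR. It was at 0.594, 0.558, 0.161, 0.613 and 0.583 CPM in shRNA and at 1.5, 1.37, 1.94, 3.97 and 1.96 CPM in shRNA+BBR. Vec mice 3 and 5 were high and the other three Vec mice were under 0.5 CPM, so Vec overlapped every other group, while shRNA and shRNA+BBR did not overlap. The lowest value, in Vec mouse 4, is below what 3 counts give in that library (0.152 CPM).

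Between shRNA+BBR and shRNA the rise of Cpt1b was 2.10 on the log2 scale (SE 0.65, 95% interval 0.74 to 3.46, edgeR adjusted p = 0.0359), a fitted 4.28-fold. That call was lost on leaving out any 1 of the 5 shRNA mice, or shRNA+BBR mouse 3 or 4, with adjusted p = 0.0611 to 0.0945 by edgeR and the difference still at 1.75 to 2.19. In AAV8-Vec mice the difference with BBR was 1.36 (SE 0.56, edgeR adjusted p = 0.101), and without Vec mouse 3 it was 2.37 (edgeR adjusted p = 0.00332). By limma-voom it was 2.57 and passed (adjusted p = 0.00806). Between shRNA and Vec it was -1.69 (SE 0.67, edgeR adjusted p = 0.0987), and without Vec mouse 3 only -0.68, while without Vec mouse 4 it was -2.01 and passed (edgeR adjusted p = 0.0215). Between shRNA+BBR and Vec it was 0.41, and without Vec mouse 3 it was 1.42 (edgeR adjusted p = 0.0777). Between shRNA+BBR and Vec+BBR it was -0.96 (edgeR adjusted p = 0.285), and a fit of those 2 groups alone gave -0.95 with an adjusted p of 0.0432 by edgeR.

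Vec mice 3 and 5, the ones with high Cpt1b, also had the highest Pparg of their group, at 35.9 and 32.1 CPM. The overlapping gene Gm44502 had medians of 1.67 CPM in Vec, 2.78 in Vec+BBR, 1.75 in shRNA and 2.69 in shRNA+BBR, and its difference between the last 2 groups was 0.60 (SE 0.27, edgeR adjusted p = 0.123). Mouse 3 of Vec+BBR, the library with muscle RNA (Myh4 at 3.76 and Ckm at 2.38 CPM), had the highest Cpt1b of its group, and without it the difference with BBR was 1.27 (edgeR adjusted p = 0.176). Both shRNA groups had summed muscle markers of at most 0.456 CPM. Of 5 adipocyte markers only Fabp4 passed the filter on low counts, and Adipoq, Lep, Plin1 and Ucp1 were at 0.523 CPM or less in every library. Fabp4 was at 5.93 to 13 CPM in Vec, 17.7 to 36.1 CPM in Vec+BBR, 8.25 to 12.1 CPM in shRNA and 12.6 to 28.5 CPM in shRNA+BBR. Its part in the Cpt1b values was not tested.

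Even at its highest Cpt1b was a trace of the liver's CPT1 message. Per length it made up 0.0209 to 1.13% of the summed Cpt1a and Cpt1b FPKM in Vec, 0.812 to 1.33% in Vec+BBR, 0.0419 to 0.245% in shRNA and 0.344 to 1.02% in shRNA+BBR.

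**Figure D3:**
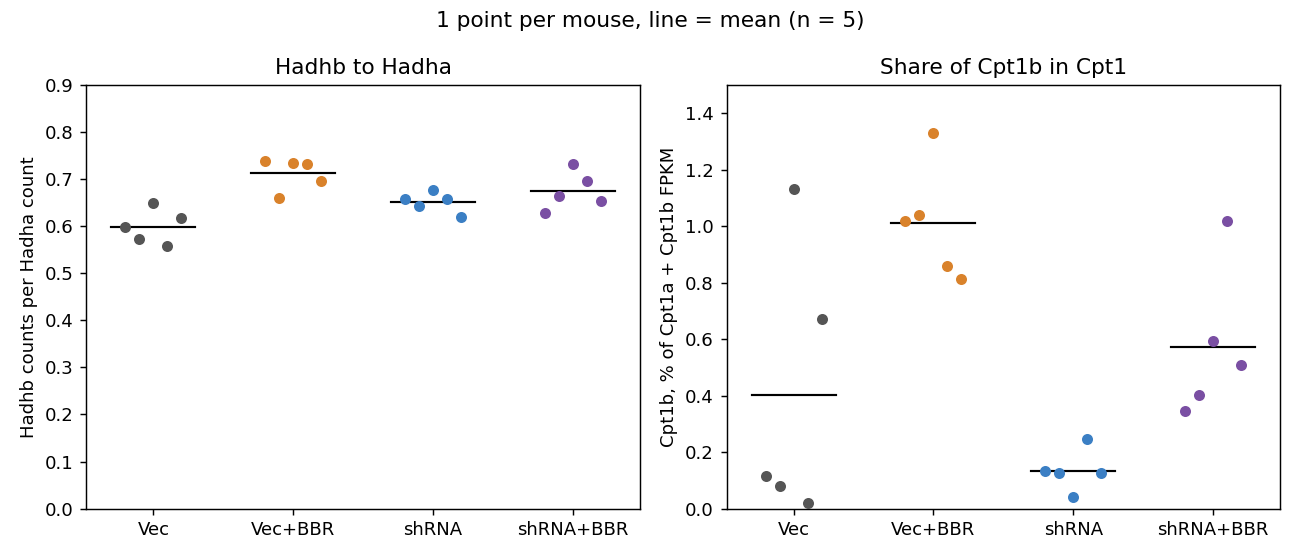
Left, Hadhb counts divided by Hadha counts (y axis), and right, the percentage of summed Cpt1a and Cpt1b FPKM that is Cpt1b (y axis), in the 4 groups (x axis), 1 point per mouse with the mean of 5 as a line. The Hadhb to Hadha ratio is 0.557 to 0.650 in Vec and 0.659 to 0.739 in Vec+BBR, and Cpt1b stays at or below 1.33% of the CPT1 message.

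Slc25a20 (chr9:108662088-108684641, plus strand), the carrier of acylcarnitines, rose with BBR in knockdown mice. It stood at 123, 134, 141, 123 and 155 CPM in shRNA and at 187, 185, 176, 159 and 163 CPM in shRNA+BBR. The groups did not overlap, and the rise was 0.36 on the log2 scale (SE 0.10, edgeR adjusted p = 0.0194), or 28.7%. Leaving out shRNA mouse 1, shRNA mouse 4 or shRNA+BBR mouse 3 took its adjusted p to 0.0501, 0.0509 and 0.0502 by edgeR. In Vec it was spread from 124 to 190 CPM, around the 154 to 175 CPM of Vec+BBR, and the difference of 0.13 (95% interval -0.07 to 0.34) did not pass.

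Cpt2 (chr4:107903981-107923610, minus strand), the enzyme on the inner membrane, passed in no comparison. It stood at 228, 240, 215, 209 and 216 CPM in Vec and at 209, 181, 192, 197 and 202 CPM in Vec+BBR, where 4 of 5 treated mice lay below all Vec mice. The difference of -0.17 (95% interval -0.35 to 0.00) did not pass (edgeR adjusted p = 0.169). In shRNA and shRNA+BBR it ranged from 192 to 232 and from 182 to 244 CPM, and their difference was 0.03 (95% interval -0.15 to 0.20).

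Among the dehydrogenases, Acadm moved in each comparison that changed one treatment. Acadm (chr3:153922357-153944632, minus strand) makes the medium chain enzyme MCAD. It stood at 433, 486, 483, 480 and 516 CPM in Vec and at 648, 512, 622, 559 and 577 CPM in Vec+BBR. In shRNA it was at 351, 328, 350, 342 and 388 CPM, and in shRNA+BBR at 505, 417, 518, 437 and 470 CPM. The shRNA mice lay below every mouse of the other 3 groups, 4 of 5 Vec+BBR mice lay above every Vec mouse, and Vec and shRNA+BBR covered one range.

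With knockdown Acadm fell by 26.6%, a difference of -0.45 on the log2 scale (SE 0.08, edgeR adjusted p = 0.00123), and BBR in knockdown mice raised it by 33.4%, a difference of 0.42 (SE 0.08, edgeR adjusted p = 0.00533). Both calls held in each of 17 alternative settings. In AAV8-Vec mice BBR raised it by 21.8%, a difference of 0.28 (SE 0.08, edgeR adjusted p = 0.0246), and with knockdown under BBR it fell by 19.6%, a difference of -0.31 (SE 0.08, edgeR adjusted p = 0.0231). The first of these was lost without Vec mouse 1, Vec+BBR mouse 1 or Vec+BBR mouse 3 (edgeR adjusted p = 0.0914, 0.0677 and 0.0629), and the second without Vec+BBR mouse 1, Vec+BBR mouse 3 or shRNA+BBR mouse 2 (edgeR adjusted p = 0.0629, 0.0625 and 0.089). Fits of only the 2 groups compared gave the same differences to within 0.01, with adjusted p of 0.0678 and 0.0687 by edgeR. The interaction was 0.13 (95% interval -0.11 to 0.38), and between shRNA+BBR and Vec the difference was -0.03 (95% interval -0.20 to 0.14).

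Acadl (chr1:66830839-66863277, minus strand), the long chain dehydrogenase, rose with BBR in knockdown mice. It stood at 185, 185, 216, 207 and 200 CPM in Vec and at 213, 221, 224, 233 and 219 CPM in Vec+BBR, where 4 of 5 treated mice exceeded every Vec mouse, and the difference of 0.16 (SE 0.07) did not pass (edgeR adjusted p = 0.123). In shRNA it was at 185, 184, 211, 183 and 207 CPM and in shRNA+BBR at 245, 218, 237, 216 and 228 CPM, with no overlap. That rise of 0.24 on the log2 scale (SE 0.07, edgeR adjusted p = 0.0265), or 18.1%, was the smallest change to pass among the 10 genes. It was lost with no filter on low counts (edgeR adjusted p = 0.0511) and without shRNA mouse 1, 2 or 4 or shRNA+BBR mouse 1 or 3 (edgeR adjusted p = 0.0501 to 0.0676). Against Vec, shRNA+BBR was higher by 0.20 (edgeR adjusted p = 0.0602), which passed without Vec mouse 3 (edgeR adjusted p = 0.0285).

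Acadvl (chr11:70010183-70015411, minus strand), the very long chain dehydrogenase, had the lower levels in both knockdown groups but passed the test in neither. It stood at 394, 456, 484, 408 and 426 CPM in Vec and at 347, 379, 371, 347 and 403 CPM in shRNA, where 4 of 5 mice lay below all Vec mice. The difference was -0.23 (SE 0.08, edgeR adjusted p = 0.0669), which passed by DESeq2 (adjusted p = 0.0278) and, by edgeR, without Vec mouse 4 (adjusted p = 0.0489). In Vec+BBR it was at 415 to 464 CPM and in shRNA+BBR at 446, 335, 382, 379 and 364 CPM, a difference of -0.19 (95% interval -0.36 to -0.02, edgeR adjusted p = 0.149). Between shRNA+BBR and Vec it was also -0.19, and without shRNA+BBR mouse 1 it was -0.25 and passed (edgeR adjusted p = 0.0468). With BBR in AAV8-Vec mice the difference was 0.01 (95% interval -0.16 to 0.18). The exons of Dvl2 on the opposite strand cover 42.9% of the exonic bases of Acadvl, and the library kit does not mark strand, but Dvl2 was at 1.66 to 3.63 CPM in all 20 livers.

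Acads (chr5:115110299-115119346, minus strand), the short chain dehydrogenase, passed in no comparison. It ranged from 197 to 244 CPM in Vec, 229 to 264 CPM in Vec+BBR, 183 to 230 CPM in shRNA and 197 to 265 CPM in shRNA+BBR. Its differences were 0.15 with BBR in AAV8-Vec mice (95% interval -0.04 to 0.33), 0.13 with BBR in knockdown mice (95% interval -0.05 to 0.31), -0.15 with knockdown (95% interval -0.34 to 0.03) and -0.17 with knockdown under BBR (95% interval -0.35 to 0.01).

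The 2 subunits of the trifunctional protein did not give the same readout although they are made from neighboring genes. Hadha (chr5:30118304-30155162, minus strand) and Hadhb (chr5:30155248-30184593, plus strand) point away from each other with 85 bases between their annotated ends. The first GGGCGG box of this stretch lies 188 bases before the RefSeq start of Hadha and 90 bases before that of Hadhb. Both RefSeq starts lie inside the GENCODE spans given above, so these distances run past the 85 bases. That stretch is shown because it lies between the annotated ends of the pair, on the plus strand of GRCm38.p6 at chr5:30155163-30155247. Each GGGCGG box (the binding letters of SP1-type factors) is in capitals:
Hadha-Hadhb: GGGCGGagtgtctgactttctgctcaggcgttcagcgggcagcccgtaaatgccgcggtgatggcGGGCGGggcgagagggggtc
Hadhb stood at 231, 250, 296, 249 and 280 CPM in Vec and at 295, 301, 369, 363 and 329 CPM in Vec+BBR. All but 1 of the treated mice lay above every Vec mouse, and the rise was 0.34 on the log2 scale (SE 0.09, edgeR adjusted p = 0.0174), or 26.9%. It was lost without Vec mouse 1, Vec+BBR mouse 3 or Vec+BBR mouse 4 (edgeR adjusted p = 0.0608, 0.0518 and 0.0533) and in a fit of only these 2 groups (0.051).

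Hadha stood at 387, 436, 455, 447 and 455 CPM in Vec and at 399, 457, 502, 495 and 474 CPM in Vec+BBR. Here too 4 of 5 treated mice lay above every Vec mouse, but by less, and the difference of 0.09 (95% interval -0.10 to 0.29) did not pass (edgeR adjusted p = 0.537). The count ratio of Hadhb to Hadha was 0.598, 0.573, 0.650, 0.557 and 0.617 in Vec and 0.739, 0.659, 0.735, 0.733 and 0.695 in Vec+BBR, without overlap. In shRNA it was 0.620 to 0.676 and in shRNA+BBR 0.628 to 0.731, and those groups overlapped. The ratio was chosen after the 2 genes' values were seen, so it is given as a description without a test. With BBR in knockdown mice the differences were 0.08 for Hadhb (95% interval -0.12 to 0.27) and 0.03 for Hadha (95% interval -0.16 to 0.23), and the interaction for Hadhb was -0.27 (95% interval -0.54 to 0.01, edgeR adjusted p = 0.286).

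The start regions of the 10 genes were searched for the letters of nuclear receptor half-sites, in RefSeq windows (GRCm38.p6) from 250 bases before to 50 bases after each start. A window was found for 9 of them, all but Cpt1b. The half-site AGGTCA, on either strand, was in 3 of the 9 windows, those of Acadm, Cpt1a and Acadvl, and in 16.3% of all 32851 windows. These are shown, each on its gene's own strand with the half-site in capitals, as AGGTCA or as its complement TGACCT.
Acadm: gTGACCTtcgggctccggtgacactg
Cpt1a: gtttccttacTGACCTcctccccgca
Acadvl: ggatcaccctAGGTCAggtagaatac
They lie at chr3:153944868-153944893, chr19:3323197-3323222 and chr11:70015500-70015525. The Cpt1a half-site is 94 bases before the RefSeq start, which lies inside the GENCODE span of Cpt1a given above, as does the half-site. The tandem of AGGTCA, 1 base and AGGTCA again (DR1) is the ideal form of a PPAR element, and its matches also count as half-sites. It was in 0 of the 9 windows and in 0.0396% of all, a share too low for 0 of 9 to be informative. The Acadm half-site is 249 bases before the start, at the edge of its window, so a repeat further upstream would not be seen. TATAAA was in 0 of the 9 and in 13.6% of all. The GGGCGG box was in 7 of the 9 and in 35.7% of all. Bases G and C made up 50.7% of the Acadvl window and 57.3 to 70.3% of the others. The median of all windows was 52.7%, and these motif shares were not adjusted for base composition. Of the 3 genes with a half-site, Acadm passed in the edgeR fit of all 20 libraries and Cpt1a and Acadvl did not, although Acadvl passed in some alternative settings, and Hadhb, Slc25a20 and Acadl had none in these windows.

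Beside the 10 genes, 20 tested genes of the same pathway were followed: other enzymes of the spiral (12), electron transfer from the dehydrogenases (3) and carnitine supply with malonyl-CoA control (5 tested of 6). With BBR in AAV8-Vec mice 2 rose and 3 fell, where 7.58% of all tested genes rose and 7.88% fell. Their median change was 0.07. Acaa2, the thiolase that ends the spiral for medium chains, was at 1150 to 1490 CPM in Vec and 911 to 1120 CPM in Vec+BBR, with no overlap, and fell by 0.38 on the log2 scale (SE 0.09, edgeR adjusted p = 0.00672). Hsd17b10, a mitochondrial dehydrogenase of branched and short chain substrates, fell by 0.44 (edgeR adjusted p = 0.0306), and Etfb, a subunit of the flavoprotein that takes electrons from the ACAD enzymes, fell by 0.49 (edgeR adjusted p = 0.00848). Acad12 and Acad10, lesser known members of the ACAD family, rose by 1.19 (edgeR adjusted p = 0.000508) and 0.50 (edgeR adjusted p = 0.0391).

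Acad12 set the Vec+BBR group apart. It stood at 4.26, 5.59, 10.7, 8.52 and 6.92 CPM in Vec and at 14.1, 16.3, 19.9, 18.2 and 13.9 CPM in Vec+BBR. In shRNA it was at 4.07 to 6.46 CPM (mean 5.16) and in shRNA+BBR at 6.21 to 8.82 CPM (mean 7.44). Acad12 did not pass with BBR in knockdown mice, and the interaction did not pass, so its BBR change is not shown to differ with knockdown. All Vec+BBR mice lay above all mice of the other groups, and Acad12 fell by 1.15 between Vec+BBR and shRNA+BBR (SE 0.19, edgeR adjusted p = 0.00121). Acad10 fell there as well, by 0.60 (edgeR adjusted p = 0.0267), and these were the 2 of 20 that moved in that comparison. Of all tested genes, 4.82% fell and 3.31% rose there.

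With knockdown alone 6 of the 20 fell and 0 rose, where 7.91% of all tested genes fell and 5.28% rose. Their median change was -0.14. Slc22a5, the plasma membrane carnitine transporter OCTN2, fell by 0.51 (edgeR adjusted p = 0.00326), Crat, the carnitine acetyltransferase, by 0.80 (edgeR adjusted p = 0.0333), and Mlycd, which breaks down malonyl-CoA, by 0.29 (edgeR adjusted p = 0.0456). The others were Eci2, a peroxisomal and mitochondrial enoyl-CoA isomerase, Etfb and Hsd17b10, at -0.39, -0.37 and -0.67. Crat was at 35.3, 54.9, 122, 43.8 and 89.5 CPM in Vec and at 30.0 to 50.7 CPM in shRNA, so only 1 shRNA mouse lay below all Vec mice, and Vec mice 3 and 5 were high in Crat as they were in Cpt1b.

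With BBR in knockdown mice 4 of the 20 rose and 0 fell, where 8.37% of all tested genes rose and 7.28% fell. Their median change was 0.16. Crat rose by 1.11 (SE 0.24, edgeR adjusted p = 0.00778), from 30.0 to 50.7 CPM in shRNA to 62.1 to 108 CPM in shRNA+BBR, without overlap. Slc22a5, Decr1, a reductase for unsaturated acyl chains, and Eci1, an isomerase for them, rose by 0.43, 0.38 and 0.35 (edgeR adjusted p = 0.0152, 0.038 and 0.0383). Between shRNA+BBR and Vec 1 of the 20 fell, Hsd17b10 by 0.50 (edgeR adjusted p = 0.0194), where 7.49% of all tested genes fell. In the interaction 0 of 20 passed, where 0.146% of all did. Acacb, which makes the malonyl-CoA that restrains CPT1, passed in no comparison. It averaged 79.5 CPM in Vec, 113 in Vec+BBR, 83.8 in shRNA and 107 in shRNA+BBR. The Vec mice were at 39.3, 41.5, 162, 40.4 and 115 CPM, so mice 3 and 5 were high here too.

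**Figure D4:**
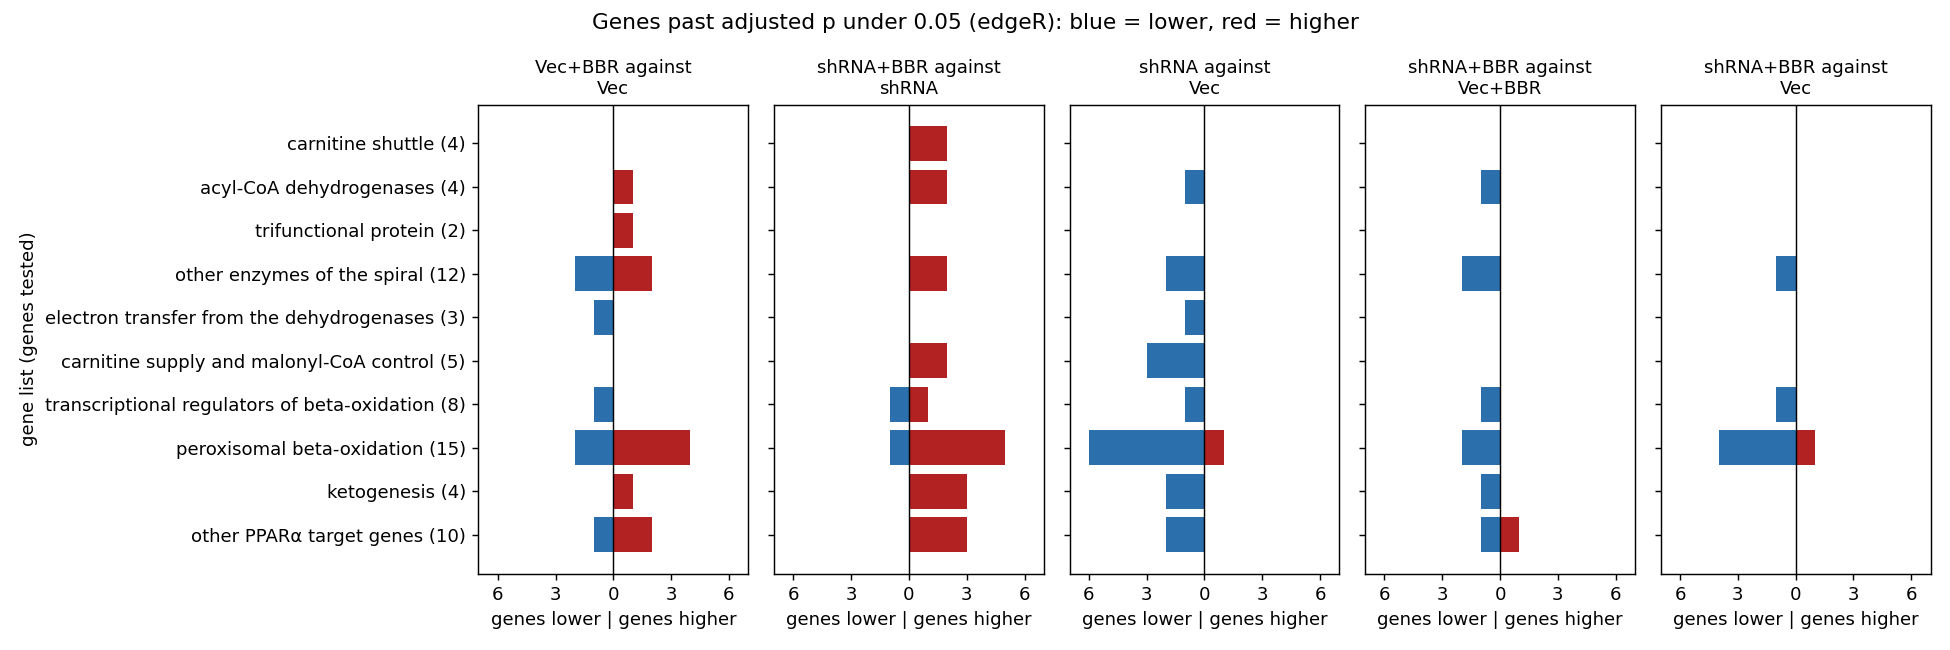
Number of genes (x axis) that were lower (blue, to the left) or higher (red, to the right) at an edgeR adjusted p under 0.05 in each gene list (y axis, genes tested in parentheses) and comparison. Peroxisomal beta-oxidation has 6 of 15 genes lower in shRNA against Vec, where 7.91% of all tested genes were lower. It has 5 of 15 higher in shRNA+BBR against shRNA, where 8.37% of all were higher.

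Ketone body synthesis uses the acetyl-CoA that beta-oxidation makes. Acat1, the mitochondrial acetoacetyl-CoA thiolase, averaged 378 CPM in shRNA and 483 in shRNA+BBR, where 4 of 5 treated mice lay above every untreated one, and rose by 0.36 with BBR in knockdown mice (SE 0.11, edgeR adjusted p = 0.0404).

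Peroxisomal beta-oxidation (15 genes), which shortens very long chains outside the mitochondrion, had 4 genes higher and 2 lower with BBR in AAV8-Vec mice and 5 higher and 1 lower with BBR in knockdown mice, with medians of 0.16 and 0.14. With knockdown 1 was higher and 6 were lower, where 5.28% of all tested genes rose and 7.91% fell. With BBR, 7.58% of all tested genes rose and 7.88% fell in AAV8-Vec mice. In knockdown mice 8.37% of all rose and 7.28% fell with BBR. Crot, the carnitine octanoyltransferase that hands shortened chains on to mitochondria, averaged 260 CPM in Vec, 392 in Vec+BBR, 222 in shRNA and 295 in shRNA+BBR. It rose by 0.60 and by 0.41 with BBR (edgeR adjusted p = 0.000765 and 0.0129), and fell by 0.41 with knockdown under BBR (edgeR adjusted p = 0.0152). Ehhadh, the bifunctional enzyme, rose by 0.55 and 0.45 with BBR (edgeR adjusted p = 0.0102 and 0.0319).

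Among 8 transcriptional regulators of the pathway, Ppara, the receptor itself, passed in no comparison. It was at 25, 37.1, 38, 112 and 71.3 CPM in Vec and at 33.2, 81.7, 64.8, 72.1 and 62.2 CPM in Vec+BBR. In shRNA it was at 44.6 to 68.2 CPM and in shRNA+BBR at 52.1, 14.1, 19.4, 40.7 and 42.5 CPM, a difference of -0.81 (95% interval -1.56 to -0.06, edgeR adjusted p = 0.12). Ppargc1a, the coactivator PGC-1α, averaged 4.33 to 4.76 CPM over the 4 groups and passed in none. Apart from Pparg, the regulators that moved were Esrra, a receptor that works with PGC-1α, which fell by 0.45 with BBR in AAV8-Vec mice (edgeR adjusted p = 0.0191), and Rxra, the partner of the PPARs, which fell by 0.43 with BBR in knockdown mice (edgeR adjusted p = 0.0441). Of 10 other PPARα target genes, 2 rose and 1 fell with BBR in AAV8-Vec mice, where 7.58% of all tested genes rose and 7.88% fell. With BBR in knockdown mice 3 rose, where 8.37% of all rose. With knockdown 2 fell, where 7.91% of all fell. With knockdown under BBR 1 rose and 1 fell, where 3.31% of all rose and 4.82% fell. Vnn1, a pantetheinase, averaged 90.9 CPM in Vec, 159 in Vec+BBR, 38.7 in shRNA and 86.9 in shRNA+BBR and moved in all 4 comparisons of one treatment, by 0.81 and 1.17 with BBR and by -1.23 and -0.87 with knockdown (edgeR adjusted p = 0.00817, 0.0027, 0.000311 and 0.0094). Pdk4, which turns fuel use from glucose to fat, passed in none, at 0.48 and 0.97 with BBR (edgeR adjusted p = 0.375 and 0.0593).

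Among the 5 tested genes whose log2 CPM followed the mean of the 10 standardized genes most closely over the 20 livers were Cryzl2 (Pearson r = 0.893), Fitm2 (0.89) and Pcx (0.88). Those closest to Cpt1b alone were Frzb (0.941), Fam124a (0.933), Lamc1 (0.928), Mgll (0.928) and Cidec (0.928). Cidec, a lipid droplet protein, averaged 36.4 CPM in Vec, 179 in Vec+BBR, 9.51 in shRNA and 61.9 in shRNA+BBR. The 20 points share 4 groups, so group differences contribute to these values, and genes were picked as the closest of all tested genes.

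The 10 genes did not all follow each other, and every negative Pearson r was of a pair with Cpt1a or Cpt2. Pairs among the other genes were all positive, from 0.2 (Slc25a20 and Hadha) to 0.83 (Acadvl and Acads) over the 20 livers. After group means were removed these pairs stayed positive, from 0.06 to 0.86. Hadha and Hadhb had a Pearson r of 0.78 over the 20 livers and 0.86 after group means were removed, and Acadvl and Acads 0.83 and 0.84. Cpt1a and Hadha had 0.56 over the 20 livers and 0.69 after group means were removed. Cpt1a and Slc25a20 had -0.39 and -0.19, Cpt1a and Acadm -0.21 and -0.1, and Cpt2 and Hadhb -0.39 and -0.09, so these were weaker within groups. Cpt2 and Acadm had -0.09 over all livers and 0.3 within groups. These are descriptions over 20 livers that share groups and, within a liver, a library and its scaling.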

How the data were processed

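Each of the 20 liver libraries (poly(A) RNA, NEBNext Ultra, Illumina NovaSeq) came as a table of gene counts and FPKM values. The deposited counts were expected counts per gene, 91.9 to 93.3% of them whole, and the deposited FPKM values were scaled by length and depth by the authors, who used mm10 per the labels. The aligner, counter and annotation are not given in the sources used here. Counts were rounded, genes were kept by filterByExpr (minimum count 10, 12342 of 22298 genes), and edgeR 4.0.16 (R 4.3.3) was run with TMM factors of 0.873 to 1.14 and a quasi-likelihood fit with 1 mean per group over all 20 libraries. The authors also used edgeR and limma between groups. Here p-values were adjusted by Benjamini-Hochberg over all tested genes, a step that was not taken from the authors' description. CPM are TMM-normalized, intervals are 95%, and signs are first-named group minus second. The 10 genes and all lists were chosen with earlier results of these data known. Alternatives were DESeq2 1.42.0, limma-voom (limma 3.58.1), DESeq2 size factors, 2 filters, only the groups compared, a replicate block and each mouse left out in turn. All 10 genes were named. List genes were named where they passed a test, and Ppara, Pparg, Ppargc1a, Acacb, Acaa2 and Pdk4, among others, in any case. For likeness, the rule took the 5 closest genes. Some genes that these rules name are not reported here. No 2 libraries of a group agreed within sampling noise. P-values set a difference against the spread between libraries of the same group. In the main fit that spread was estimated over all 20 libraries, so each comparison also uses groups that it does not compare. Positions are from GENCODE M21 and promoter windows from RefSeq.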

Additional observations from a re-analysis of the deposited data

Results flagged for a closer look

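In each group of 5 mice, the highest and lowest mouse of each of the 10 genes was compared with its nearest neighbor by Dixon's ratio, which is the gap to that neighbor divided by the whole range of the group. Of 40 groups, 4 had a mouse that stood apart, where chance alone flags about 1 in 20. Cpt1b was low in shRNA mouse 3 (0.161 CPM, next 0.558, ratio 0.878) and high in shRNA+BBR mouse 4 (3.97 CPM, next 1.96, ratio 0.774). Without these mice, taken 1 at a time, the rise of Cpt1b between the 2 knockdown groups was 1.86 and 1.75 on the log2 scale and no longer passed (edgeR adjusted p = 0.075 and 0.0945). It was also lost without shRNA mouse 1, 2, 4 or 5 or shRNA+BBR mouse 3 (edgeR adjusted p = 0.0611 to 0.0699). None of those mice stood apart in Cpt1b, so losing the call is not particular to the flagged mice. Slc25a20 was low in Vec+BBR mouse 2 (154 CPM, next 170, ratio 0.745), and Hadha was low in Vec mouse 1 (387 CPM, next 436, ratio 0.716).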

How the results depend on the processing

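For the 10 genes, 60 log2 differences were recomputed, 10 in each of 5 comparisons and the interaction, and no call reversed its direction under any setting. Acadm kept its call in shRNA against Vec and in shRNA+BBR against shRNA in all 17 settings each, and the interaction had 0 calls in all 26. DESeq2 raised the number of the 10 genes called to 2 in shRNA against Vec and to 1 in shRNA+BBR against Vec, and a filter of at least 10 counts in every library, which leaves out Cpt1b, also gave 1 there. Fitting only the groups compared left 0 in Vec+BBR against Vec. Leaving out each mouse in turn gave 0 to 3 genes in Vec+BBR against Vec, 1 to 3 in shRNA against Vec, 0 to 1 in shRNA+BBR against Vec+BBR, 1 to 4 in shRNA+BBR against shRNA and 0 to 1 in shRNA+BBR against Vec. Fewer mice or genes enter those fits by construction, and other causes were not tested. Deviations of same-numbered mice had r = -0.30 to 0.26, over 0.1 in at most 3 of 5 pairs. Mice with different numbers were not compared, so these values cannot tell whether the numbers pair mice. The replicate block gave 2, 1, 1, 4 and 0 genes in the 5 comparisons, as without it. The counts of genes called in the other pathway lists moved by over 1.5 times in 135 of 777 recomputed values. Cpt1b, at 0.63 expected counts in one Vec library and 4.37 to 13.92 in the shRNA libraries, is the value that depth limits most.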
